A study of Mus musculus with 18 samples.

Results

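Differentiation of mouse skeletal muscle cells was followed here as the difference between 2 lists of open chromatin regions, one from myocytes labelled wild type and the other from wild-type myoblasts. The members are all peaks of these 2 lists on chromosomes 1 to 19, chosen by list and chromosome alone: 109753 myocyte peaks and 96420 myoblast peaks, or 206173 of the 400124 peaks deposited in the 4 lists of the series. A peak was counted as shared where at least 1 bp of it lay under a peak of the other list.

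Myoblasts are proliferating muscle precursors, and on withdrawal of growth signals they leave the cell cycle and become myocytes, which later fuse into muscle fibres. MyoD, a transcription factor of the basic helix-loop-helix class, binds short DNA elements called E-boxes and is known for its ability to open chromatin and to turn other cell types towards muscle. ATAC-seq reads open chromatin by means of a transposase that inserts sequencing adapters where DNA is not covered by nucleosomes, so that a peak marks a promoter, an enhancer or another accessible site.

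The compared groups were myoblasts of wild-type skeletal muscle (3 samples, proliferating) and myocytes labelled wild type after 24 h of myogenic differentiation (3 samples). The other ATAC-seq groups were MyoD-null myoblasts and myocytes labelled MyoD-null after 24 h, with 3 samples each. They were used only to see where the peaks of the 2 compared lists recurred. The labels give neither the MyoD-null allele nor the age of the mice, and do not say whether the 3 samples of a group came from separate animals. Reads of the 3 samples had been merged before peaks were called, so each group is 1 list, no value has an error between replicates, and no test between the groups was possible.

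All 109753 peaks in the list labelled as wild-type myocytes have names that read MKO-DM, the abbreviation used in the titles of the MyoD-null samples, and all 86575 peaks of the list labelled as MyoD-null myocytes have names that read WT-DM. Names in the myoblast lists begin with WT (96420 wild-type peaks) and KO (100192 MyoD-null peaks). The myocytes are called here by their label, and the main counts are also given with the other myocyte list in their place. A common prefix stands before the names of both myocyte lists and is missing from the myoblast names, so the stage of differentiation and a difference in handling cannot be told apart. In merged bulk material, a weaker peak can come from fewer cells with an open site or from less opening per cell, and these cannot be told apart either. Peaks could not be assigned to genes, since the gene positions supplied belong to another genome build (GRCm38) than the lists (mm9). For the same reason the identity of the cells was not checked against muscle genes.

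The number of reads behind each peak was recovered from its fold enrichment and p-value. Fold enrichment is the pileup of reads at the peak's summit divided by the local background, with 1 added to each. A whole number of summit reads gave the deposited −log10 p to within 0.01 in 100% of the peaks of both lists. The genome-wide background was 5.29 reads per base in the myocytes and 8.18 in the myoblasts, so the myocyte list was the shallower one. At that background, the weakest listed peak had 15 reads and a fold of 2.55 in the myocytes, and 20 reads and a fold of 2.29 in the myoblasts. The myoblast list thus reached down to lower folds, and a myocyte peak missing from it was not detected above about that fold, which does not show that the site was closed.

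The list of myocytes labelled wild type had more peaks of its own than the myoblast list, which was the shorter of the 2. Shared peaks were near in number, 76934 in the myocyte list and 78991 in the myoblast list. The excess therefore largely restates the difference in list length. Of the 109753 myocyte peaks, 32819 or 29.9% lacked a partner among the myoblast peaks (95% Wilson interval 29.6 to 30.2). In the opposite direction, 17429 of 96420 myoblast peaks lacked a partner, a share of 18.1% (17.8 to 18.3). Intervals cover counting error only. Myocyte peaks without overlap covered 13.1 Mb, which was 19.8% of the open sequence of their list, and myoblast peaks without overlap covered 5.34 Mb or 10.5%. The direction of the net depended on the myocyte list: it was 15390 peaks more in these myocytes, and -8268 with the list whose peak names read WT-DM (13360 myocyte peaks and 21628 myoblast peaks without overlap). That list held 86575 peaks, fewer than the myoblast list. With both lists cut to 96420 peaks the net was 2150.

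Few peaks lay at the edge of the 1 bp rule. Of the myocyte peaks without overlap, 50 ended within 50 bp of a myoblast peak, while 90 myocyte peaks with 1 partner shared at most 50 bp with it. Among myoblast peaks these numbers were 66 and 115. The median gap from a peak without overlap to the nearest peak of the other list was 4604 bp for myocyte peaks and 5105 bp for myoblast peaks.

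Weak peaks lacked a partner more often than strong ones in both lists. Among the weakest 10% of each list, 55.5% of myocyte (54.6 to 56.4) and 36.0% of myoblast peaks (35.05 to 36.96) had no overlap. Among the strongest 10%, the share was 6.08% in the myocytes (5.65 to 6.54) and 0.187% in the myoblasts (0.118 to 0.295). The myocyte share was above the myoblast share in every step of strength. Ranked by summit reads over the genome-wide background in place of fold enrichment, the strongest 10% had shares of 1.44% (1.23 to 1.68) and 0.156% (0.0943 to 0.257), so the gap in this step was smaller on that measure. Of 51325 myocyte peaks with a fold enrichment of 5 or more, 7047 lacked a partner in the whole myoblast list. Of 23495 myoblast peaks of that fold, 241 had none in the whole myocyte list. At a fold of 10 or more there were 221 such myocyte peaks among 4744, and 0 such myoblast peaks among 286 (Wilson interval 0 to 1.33%). The same fold ranks lower in the myocyte list, where the median fold was 4.79 against 3.74 in the myoblast list.

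**Figure D1:**
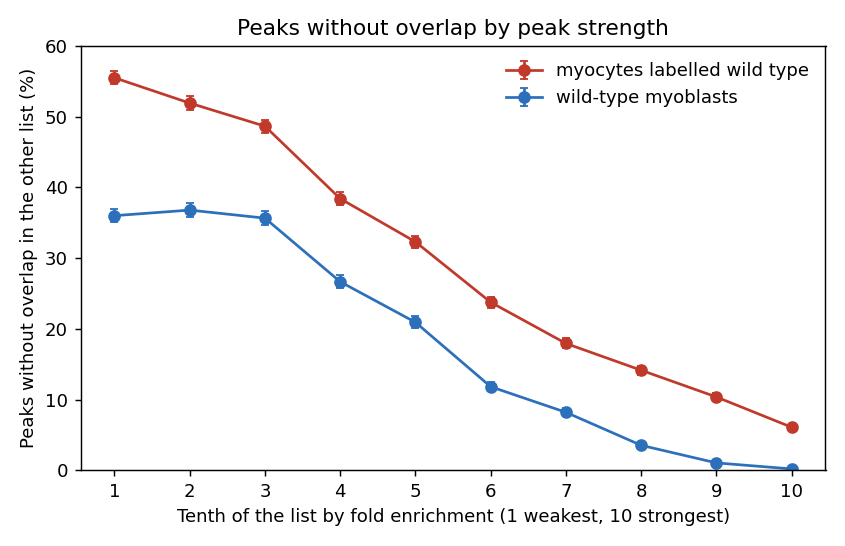
Percent of peaks without overlap in the other list (vertical axis) against strength, with each list divided into 10 equal parts by fold enrichment (horizontal axis); red points are myocytes labelled wild type, blue points wild-type myoblasts, and bars are 95% Wilson intervals for counting error. The myocyte share falls from 55.5% to 6.08% and the myoblast share from 36.0% to 0.187%.

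In read numbers, the median summit of a myocyte peak without overlap held 31 reads over a local background of 6.02, against 54 reads over 8.38 in shared myocyte peaks. Myoblast peaks without overlap also had a median of 31 reads, over a background of 8.24, against 50 over 11.1 in shared myoblast peaks. Peaks without overlap were more often found where the local background was no higher than that of the whole genome, 40.8% against 23.9% of shared peaks in the myocytes and 49.0% against 23.2% in the myoblasts. Width followed the same course as strength. Of the narrowest 10% of myocyte peaks 65.2% had no overlap, and of the widest 10% it was 2.53%.

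The strongest myocyte peaks without overlap were each covered by 83 to 122 reads. On chromosome 1, the peak at 24619431 to 24620126 (mm9) had 108 summit reads over a local background of 5.29, a fold enrichment of 17.3. It was not confined to these cells, since the myocytes labelled MyoD-null listed it with a fold of 9.81 and the MyoD-null myoblasts with 4.401. On chromosome 12, the peak at 39600952 to 39601688 had 122 reads and a fold of 16.0, and it was listed in the same 2 lists with folds of 6.81 and 3.77. A peak on chromosome 14, 23718338 to 23718990, had 94 reads and a fold of 14.4, with folds of 3.82 and 3.25 in these lists.

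Of the 10 strongest, 6 were listed in no other group. They included chromosome 10, 16509402 to 16509996, with 93 reads over a background of 5.29, and chromosome 12, 27920441 to 27921233, with 111 reads and a fold of 14.6. Chromosome 7 held a pair of them, at 37355964 to 37356812 with 91 reads (fold 14.0) and at 63423933 to 63424703 with 98 reads (fold 13.8). The other two lay on chromosome 5, 43485437 to 43486189, with 85 reads, and on chromosome 13, 82734558 to 82735452, with 83 reads. A peak on chromosome 3, 115440717 to 115441358, with 97 reads and a fold of 13.8, was also listed in MyoD-null myoblasts, with a fold of 3.35. These 10 sites were 595 to 895 bp wide, against 498 bp for the median peak in the list.

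Myoblast peaks without overlap were weaker at the top, with 61 to 124 summit reads among the 10 strongest, over a higher background. The strongest, on chromosome 4 at 88403049 to 88403832, had 124 reads over 11.8 and a fold of 9.80, and a second lay close by at 88409308 to 88409782, with 82 reads over 8.18. Neither was listed in MyoD-null myoblasts, and both were listed in the myocytes labelled MyoD-null, with folds of 9.04 and 10.9. A site on chromosome 5, 105000401 to 105000970, had 69 reads and the same pattern. The next sites were listed in both of those lists: chromosome 10, 20142941 to 20143473, had folds of 7.37 in wild-type myoblasts, 8.80 in myocytes labelled MyoD-null and 6.81 in MyoD-null myoblasts. Chromosome 11, 8285824 to 8286502, had 7.32, 9.22 and 8.80 in the same order. Both sites were thus listed in 3 groups and missing from the myocytes labelled wild type alone.

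In all, 8 of the 10 strongest myoblast peaks without overlap were listed in the myocytes labelled MyoD-null, and 7 in MyoD-null myoblasts. Those missing from the other myocytes as well were on chromosome 8, 110383453 to 110384049, with 63 reads and a fold of 6.97, and on chromosome 11, 99452272 to 99452617, with 61 reads and a fold of 6.75. MyoD-null myoblasts listed these with folds of 6.81 and 5.97. Each of the 10 was thus listed in at least 1 of the other lists.

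The same contrast held over all peaks without overlap. Of the 32819 myocyte peaks, 22506 or 68.6% (68.1 to 69.1) were listed in neither of the other lists, 7182 or 21.9% in the myocytes labelled MyoD-null and 5461 or 16.6% in MyoD-null myoblasts. Of the 17429 myoblast peaks, 5236 or 30.04% (29.4 to 30.7) were listed in neither, 5589 or 32.1% in the myocytes labelled MyoD-null and 10919 or 62.6% in MyoD-null myoblasts. Over all peaks, with and without overlap, 22.8% of the myocyte list and 8.27% of the myoblast list were listed in neither. Among shared myocyte peaks, 87.7% and 93.1% were listed in these 2 lists, and 3.32% in neither. Among shared myoblast peaks it was 87.6% and 92.7%, and 3.46% were listed in neither. The median fold of myocyte peaks without overlap was 3.77 where neither list held them and 3.98 where both did, and for myoblast peaks without overlap it was 2.91 and 3.29. Shared myocyte peaks differed more, with 3.82 where neither list held them and 5.76 where both did.

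Strength changed this less for myocyte peaks than for myoblast peaks. In the strongest 10% of the myocyte list, 667 peaks had no overlap, and of these 27.1% (23.9 to 30.6) were listed in the myocytes labelled MyoD-null and 22.6% (19.6 to 25.97) in MyoD-null myoblasts. Shared peaks of the same strength were listed there in 97.5% and 99.0% of cases. Of the 241 myoblast peaks without overlap and with a fold of 5 or more, 194 or 80.5% (75.03 to 85.01) were listed in the myocytes labelled MyoD-null, 230 or 95.4% (92.0 to 97.4) in MyoD-null myoblasts, and 0 in neither. Shared myoblast peaks in the strongest 30% of the list were listed in these 2 lists in 98.0 to 99.99% and 99.8 to 99.98% of cases per 10% step. Of the 7047 myocyte peaks without overlap and with a fold of 5 or more, 4471 or 63.4% were listed in neither. At a fold of 10 or more it was 121 of 221 or 54.8%.

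**Figure D2:**
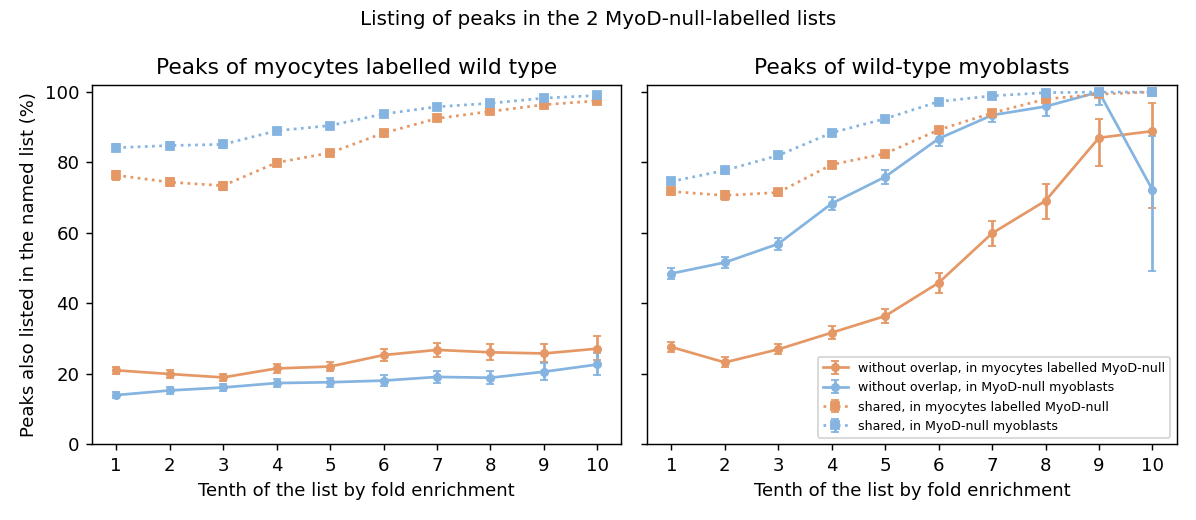
Percent of peaks also listed in the myocytes labelled MyoD-null (orange) and in MyoD-null myoblasts (light blue), by strength in 10 equal parts of the list, for peaks of the myocytes labelled wild type (left) and of wild-type myoblasts (right). Circles and solid lines are peaks without overlap between the 2 compared lists, squares and dotted lines shared peaks, and bars are 95% Wilson intervals; at the strongest step 27.1% of myocyte peaks without overlap recur in the other myocytes against 97.5% of shared peaks.

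Regions present in both lists were stronger in the myocytes as a rule. In 73775 regions a myocyte peak overlapped exactly 1 myoblast peak and the reverse, and the median fold was 5.43 in the myocytes and 4.06 in the myoblasts. The median ratio of the 2 folds was 1.27, with quartiles of 1.09 and 1.51, and 84.8% of the regions had the higher fold in the myocytes. Summit reads were close, with medians of 53 and 50, over the lower myocyte background. The fold at least doubled (a ratio of 2 or more) in 4483 regions or 6.08%, and a ratio of 0.5 or less was found in 20 regions or 0.0271%. Scaled by the median ratio, 1142 regions (1.55%) were at least 2 times stronger and 281 (0.381%) at least 2 times weaker, so that the excess of stronger regions was smaller on that scale. With the list whose peak names read WT-DM, the unscaled numbers were 582 and 9 of 70268 regions.

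**Figure D3:**
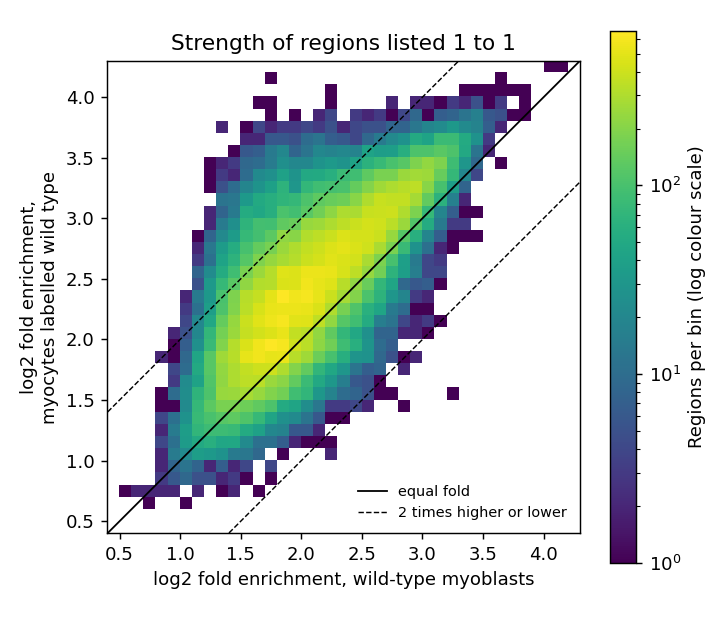
Fold enrichment on a log2 scale in wild-type myoblasts (horizontal) and in myocytes labelled wild type (vertical) for the 73775 regions listed 1 to 1, with the number of regions per bin as colour on a log scale. The solid line marks equal fold and the dashed lines a ratio of 2 either way; most regions lie above the solid line, 4483 at or above the upper dashed line and 20 at or below the lower one.

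Summits of paired peaks lay a median of 45 bp apart, and 54.1% were within 50 bp of each other. Paired peaks were wider in the myocytes in 69.3% of regions, with medians of 581 and 473 bp. Folds in the 2 lists followed each other across regions (Spearman's rho 0.71 over 73775 regions, which share depth and base composition within each list and are not independent).

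Some myoblast peaks were joined under 1 myocyte peak. Of 109753 myocyte peaks, 2409 each covered 2 or more myoblast peaks, 4873 in all. Of 96420 myoblast peaks, 403 covered 2 or more myocyte peaks. Myocyte peaks were also wider, with list medians of 498 and 420 bp, and the part of width in these counts was not tested. The most myoblast peaks under a myocyte peak was 4, at chromosome 4, 14770014 to 14772953 (2940 bp, fold 5.18), and at chromosome 4, 101026769 to 101029027 (2259 bp, fold 3.82). These 2 sites were picked after their values were seen. The median width of the joining myocyte peaks was 1347 bp.

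The shared regions with the largest rise had been barely listed in myoblasts. On chromosome 16, the region at 46251674 to 46252302 had 117 reads and a fold of 17.3 in the myocytes, and 29 reads and a fold of 3.27 in the myoblasts, a ratio of 5.29. It was listed in neither of the other lists. On chromosome 6, 140998567 to 140999376 had 96 and 23 reads (folds of 13.4 and 2.61), and on chromosome 4, 117775626 to 117776459 had 121 and 23 reads (folds of 13.4 and 2.61). Myoblast summits in the 10 regions of this kind held 21 to 30 reads, where 20 was the lowest number listed at the genome-wide background. Whether such a region counts as shared or as a myocyte peak without overlap therefore turned on a few reads. The widths also differed, as on chromosome 1, 80864861 to 80865908, where the myocyte peak spanned 1048 bp and the myoblast peak 275 bp.

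These 10 regions were chosen for a high fold in the myocytes labelled wild type against the myoblasts, so a lower fold in the other lists is no result. Each of the other lists held 8 of them. The region on chromosome 1 from 16616007 to 16616562, with folds of 15.4 in the myocytes and 3.38 in the myoblasts, had 8.86 in the myocytes labelled MyoD-null and 2.93 in MyoD-null myoblasts. The region on chromosome 7 from 36962765 to 36963558 had 12.6 and 2.83 in the compared lists, and 3.13 in the myocytes labelled MyoD-null against 4.297 in MyoD-null myoblasts. Its order between stages was thus opposite in the other lists.

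The 10 shared regions with the largest fall varied in the other myocytes, with folds from 2.63 to 12.9 where they were listed. Among them the order of stages between the other lists went both ways. On chromosome 7, 123243722 to 123243981 had 17 reads (fold 2.86) in the myocytes and 87 reads (fold 9.59) in the myoblasts, a ratio of 0.299. The myocytes labelled MyoD-null listed it with a fold of 11.8 and MyoD-null myoblasts with 7.65. On chromosome 12, 111012055 to 111012445 had 16 and 66 reads (folds of 2.70 and 7.30), and folds of 12.9 and 7.13 in the other lists. These 10 regions were picked for a low fold in myocytes labelled wild type against myoblasts, so a higher fold elsewhere is no result. Of them, 9 were listed in the myocytes labelled MyoD-null, 8 with a higher fold there than in the myocytes labelled wild type. The exceptions were chromosome 1, 12868130 to 12868381, which was not listed there, and chromosome 13, 111196466 to 111196761, with folds of 3.34 and 3.29. A close pair on chromosome 9, from 79809764 to 79810004 and from 79818734 to 79819003, had 73 and 61 myocyte reads over local backgrounds of 32.4 and 28.5, so there the low fold lay beside a high background and not beside few reads.

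Across all regions with a scaled change, the lists not used in the ratio were compared. In the 1142 regions at least 2 times stronger in the myocytes labelled wild type, median folds of 9.24 and 3.16 were listed in these myocytes and the myoblasts. Of them, 71.0% (68.3 to 73.6) were listed in the myocytes labelled MyoD-null, below the 87.4% over all 73775 regions. MyoD-null myoblasts also listed fewer of them, 83.4% (81.1 to 85.4) against 92.9%. In wild-type myoblasts these regions were weaker than all regions, whose median fold there was 4.06. Where all 4 lists held them (713 regions), the median fold was 4.50 in the myocytes labelled MyoD-null and 3.67 in MyoD-null myoblasts, a median ratio of 1.24 against 1.13 over all such regions. In the 281 regions at least 2 times weaker, 94.7% (91.4 to 96.7) were listed in the myocytes labelled MyoD-null and 98.6% (96.4 to 99.4) in MyoD-null myoblasts. The median folds of the 263 held by all 4 lists were 3.18 in the myocytes labelled wild type, 5.46 in wild-type myoblasts, 5.21 in the myocytes labelled MyoD-null and 4.95 in MyoD-null myoblasts. The first 2 values were fixed by the choice of regions, and the other 2 were not used in it. Between the lists labelled MyoD-null, the median ratio of myocyte to myoblast fold was 1.05 in these regions, below the 1.13 over all regions held by 4 lists. The myocyte fold was the higher one in 59.7% of them, against 73.8% over all.

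Peaks without overlap lay among shared peaks and in part close to each other. The median distance from a myocyte peak without overlap to the nearest shared peak was 5387 bp, against 5488 bp between neighbouring shared peaks of that list. For myoblast peaks it was 7240 bp, against 5209 bp. From a myocyte peak without overlap to the next of its kind it was 12014 bp, and from a myoblast peak 28080 bp. Runs of such peaks with neighbouring starts within 12500 bp were called clusters. There were 329 clusters of 5 or more myocyte peaks and 14 of 5 or more myoblast peaks, and 24.1% of the myocyte peaks without overlap, but 6.52% of the myoblast ones, were in clusters of 3 or more. The number of clusters grows with the number of peaks: with lists of equal length it was 146 and 38.

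The largest myocyte clusters held 12 peaks each. That on chromosome 5, 140489552 to 140553177 (63.6 kb), reached a fold of 8.23. It spanned 14 myocyte peaks in all and 2 wild-type myoblast peaks, with 4 peaks of the myocytes labelled MyoD-null and 7 of MyoD-null myoblasts. That on chromosome 6, 146866718 to 146922113, held 17 myocyte peaks and 6 myoblast peaks, with a median fold of 3.04 in those without overlap. On chromosome 1, 92936570 to 93004452, there were 11 peaks without overlap, all of fold 3.71 or less, among 20 myocyte peaks, and the other lists had 9 to 12 peaks there. On chromosome 5, 93170815 to 93225789, 9 of 10 myocyte peaks lacked a partner, and their median fold was 4.85. On chromosome 2, 113947674 to 113988014, all 9 myocyte peaks had none, and no peak of the myocytes labelled MyoD-null fell in that interval. MyoD-null myoblasts had 2 peaks there. Of the 329 clusters, 46 spanned no myoblast peak at all.

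Clusters of myoblast peaks were smaller. In the 5 largest the median fold of the peaks without overlap was 2.87 to 3.05, near the 3.05 of all such myoblast peaks. The largest, on chromosome 14 from 21649042 to 21691028, had 8 peaks without overlap among 12 myoblast peaks, with a fold of at most 3.42, and 5 myocyte peaks. On chromosome 8, 91525980 to 91565241, 6 myoblast peaks had no myocyte peak among them, while 6 peaks of MyoD-null myoblasts and 2 of the myocytes labelled MyoD-null lay in the same interval. Also on chromosome 8, 19918525 to 19932498 held 7 myoblast peaks, 6 of them without overlap, within 14.0 kb, and 7 peaks in MyoD-null myoblasts. The other two, on chromosome 12 from 110828863 to 110855561 and on chromosome 8 from 8440673 to 8477769, had 5 each, with folds of up to 4.796 and 4.50.

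**Figure D4:**
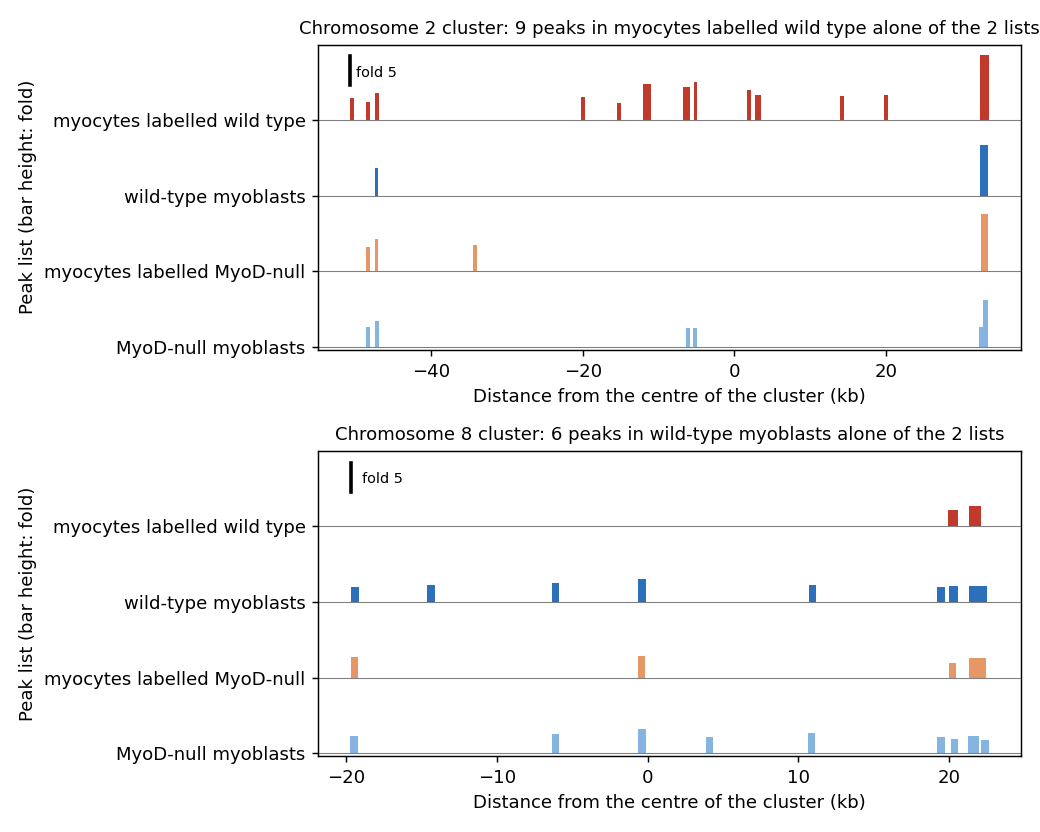
Peaks of the 4 lists around a cluster of 9 myocyte peaks on chromosome 2 (top) and a cluster of 6 myoblast peaks on chromosome 8 (bottom), as distance from the cluster's centre in kb; each bar is a peak, its height the fold enrichment (the black bar is a fold of 5), and bars are drawn at least 0.5 kb wide. The 2 clusters are the highest ranked in which the other list has no peak, and beyond both ends of the chromosome 2 cluster peaks stand in all 4 lists.

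Among the 5 broadest peaks without overlap, 4 had high local backgrounds in the myocytes and none did in the myoblasts. On chromosome 18, 67533663 to 67535605, the myocyte peak spanned 1943 bp with 156 reads over a background of 30.2, a fold of 5.03. Both other lists held it, with folds of 3.39 and 2.57. On chromosome 7, 108982440 to 108984353, 149 reads stood over 46.9 (fold 3.13). Of these 5 myocyte peaks, 4 were listed in the myocytes labelled MyoD-null. The broadest myoblast peak without overlap, on chromosome 18 from 58995781 to 58997505, spanned 1725 bp with 42 reads over 8.90. MyoD-null myoblasts listed it with a fold of 4.21. On chromosome 11, 31069149 to 31070359, the myoblast peak had 59 reads over 8.18 and was listed in the myocytes labelled MyoD-null with a fold of 6.81.

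All 19 chromosomes showed the same order, a larger share without overlap in the myocytes. The myocyte share ran from 27.4% on chromosome 11 to 32.2% on chromosome 1. The myoblast share ran from 16.1% on chromosome 19 to 20.4% on chromosome 14, so the ranges did not overlap. The chromosomes share the same pooled lists, so they repeat the list-wide difference and are not independent of each other. Every chromosome also held more myocyte than myoblast peaks, so the order largely follows from the numbers of peaks. With lists of equal length, the list-wide shares were 25.3% of myocyte and 23.1% of myoblast peaks. At equal length these shares differ only through unequal numbers of shared peaks. With the myocyte list whose peak names read WT-DM, which was shorter than the myoblast list, the order was opposite, 15.4% of myocyte and 22.4% of myoblast peaks. The order per chromosome was not tested under these settings. Peak-poor stretches held larger shares of both kinds. Windows of 1 Mb were divided by their number of MyoD-null myoblast peaks, a list used in neither count. That list held 87.2% of the wild-type myoblast peaks, so the windows were not independent of the myoblast list compared. In windows with at most 55 MyoD-null myoblast peaks, 33.7% (33.2 to 34.2) of myocyte peaks had no overlap, against 27.1% (26.7 to 27.6) in windows with 85 or more. For myoblast peaks it was 20.9% (20.5 to 21.4) and 14.9% (14.5 to 15.2). Within the strongest quartile of the myocyte list the shares were 12.49% and 6.35%, so the order was the same among strong peaks.

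**Figure D5:**
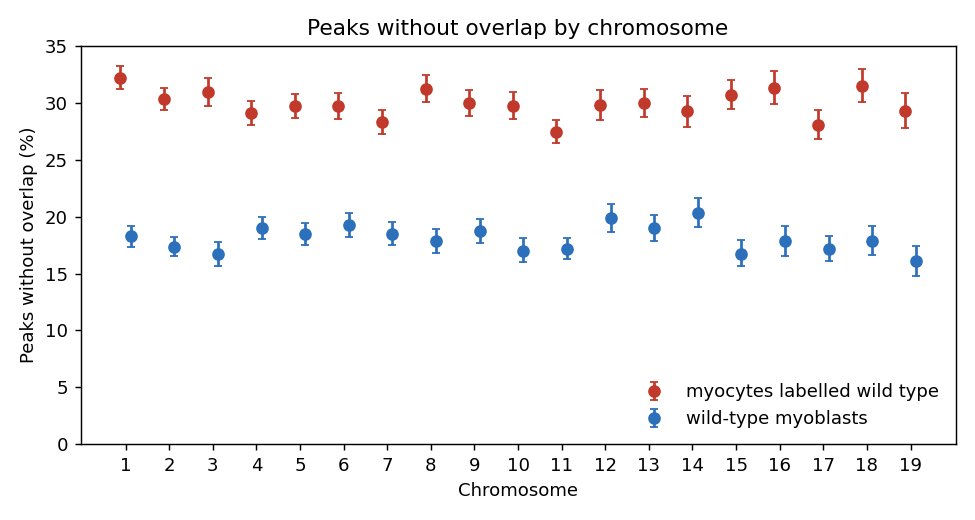
Percent of peaks without overlap in the other list on each of the 19 chromosomes, for myocytes labelled wild type (red) and wild-type myoblasts (blue), with 95% Wilson intervals for counting error. Myocyte shares run from 27.4% to 32.2% and myoblast shares from 16.1% to 20.4%, so the red points lie above the blue ones throughout. The 19 chromosomes share the same pooled lists and are not independent.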

How the data were processed

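ATAC-seq peaks were deposited as 1 list per group of 3 samples, in narrowPeak layout. Per the submitters' processing notes, the build was mm9 and the tools MACS2 and deepTools. Peak names carry a MAPQ30 tag and refer to merged alignments. Neither the aligner, nor the settings, nor any shift for the transposase is given in the sources used here. The deposited fold enrichment is a ratio made by the authors' peak caller, and the deposited −log10 p is its p-value. The deposited score, 10 times the −log10 of the q-value, served for the limit on q. Summit offsets come from the same caller.

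Peaks on chromosomes 1 to 19 were kept. Regions prone to artefact signal were not removed. Overlaps, 1 to 1 pairs, distances and clusters were computed with Python 3.11.15 (scipy 1.17.1, numpy 2.4.6, pandas 2.3.3), statsmodels 0.14.6 for Wilson intervals, and matplotlib 3.10.9. Summit reads are the whole number that gives both the deposited fold and p under a Poisson background. All 10 quantities checked on 20000 simulated peaks were recovered within 1 percent. Named sites were the 10 strongest peaks without overlap, the 10 most changed shared regions (fold of at least 4 in either list), the 5 largest clusters and the 5 broadest peaks without overlap, in each direction. Coordinates are mm9 and count from 1. Planned promoter, gene list and motif steps were not run, because no mm9 genome or annotation was used here. The comparison, the rules and the alternatives were chosen with earlier results of these data known. With 1 list per group no p-value between groups is given.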

Additional observations from a re-analysis of the deposited data

How the results depend on the processing

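No paired analysis was possible because the replicates of each group had been merged into 1 list, and for that reason no replicate could be left out. Depth limits the lists to sites of at least 15 reads in the myocytes and 20 in the myoblasts at the genome-wide background, and their totals of reads per sample are unknown. Of the 60 recomputed values (the named sites, chosen for lacking a partner, are left out), 22 stayed within their limits (1.5 times for counts, the 95% interval for shares and medians), 37 moved and 1 changed direction; the causes were not tested. Reading genotypes from the peak names gave 13360 myocyte peaks without overlap and turned the net to -8268, while shared regions at least 2 times stronger numbered 582 in myocytes and 9 in myoblasts. With a fold of at least 5 in both lists, 1641 myoblast peaks had no overlap and the net was 27848, though a partner of lower fold is not counted there. A reciprocal overlap of 50% left 29129 myoblast peaks without overlap.

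With lists of equal length the net was 2150, the clusters of 5 or more numbered 146 (myocytes) and 38 (myoblasts), and the median distance of myocyte peaks to a shared peak was 5832 bp. A gap of 5 kb gave 14 and 1 clusters, and 25 kb gave 1169 and 112. The median folds at equal length were 4.18 (myocyte peaks without overlap), 5.63 (myocyte, shared) and 4.13 (myoblast, shared), and the median widths 388, 622, 288 (myoblast, without overlap) and 487 bp. At a q of 1e-5 or lower, the median folds were 4.06 and 5.67 in myocytes and 3.27 and 4.21 in myoblasts, for peaks without overlap and shared, and the widths 381, 625, 299 and 500.0 bp. With 4 lists of 86575 peaks, 29.3% of myocyte and 48.0% of myoblast peaks without overlap were listed in the myocytes labelled MyoD-null, and 15.7% and 63.7% in MyoD-null myoblasts. Shared regions at least 2 times stronger were 1142 and 281 after scaling to the median ratio. By summit reads over the genome-wide background, an alternative chosen after seeing the data, they were 12392 and 36; on that scale the median ratio of all regions was 1.51. Also chosen after seeing the data was a limit of 3 times the genome-wide background at the summit, which kept both counts within 1.5 times.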
